A study of Mus musculus with 20 samples.

Results

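The amino acid stress response genes are a group of 46 genes, made up of the transcription factor ATF4, the kinases and phosphatase subunits that act upstream of it, and genes reported to be switched on by it. They were chosen by gene symbol, and all 46 were found among the 13283 genes of the deposited table. They were followed in mouse embryonic stem cells with changes in Trim71, the gene of an RNA-binding protein of pluripotent cells, in 20 bulk mRNA libraries. According to the labels, all cells were male, of the C57BL/6 strain, and were cultured in serum (FCS) medium to which LIF and 2i had been added.

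The libraries belong to 2 systems with different starting cells. In the conditional system, 4 Trim71-KO libraries were set against 4 Trim71-cond libraries, whose genotype label is a floxed (fl/fl) allele, and both groups carry the codes 1A, 2B, 3A and 3B. No clone is named for them in the labels, nor whether they stem from separate deletions or cultures, so their p-values measure the spread between libraries. In the clonal system, 3 clones were homozygous for the R595H form of TRIM71 (R595H/R595H: C14, C20, C24), 3 were heterozygous (R595H/+: C15, C21, C23) and 3 were WT (C16, C5, C7). Clones C14, C15 and C16 have a library from each of the title dates 20/1 and 5/2. For the remaining clones a single 5/2 library was made. The clone was the unit of comparison, with the libraries of a clone averaged first. By its title, the series addresses whether the homozygous form changes transcripts in the way that loss of the protein does.

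When a cell lacks an amino acid, uncharged tRNAs activate the kinase GCN2, which phosphorylates the translation initiation factor eIF2alpha. Other kinases do the same for heme deficiency, mitochondrial stress and unfolded protein in the endoplasmic reticulum. Most translation then slows while that of ATF4 increases, and ATF4, paired with C/EBP proteins, switches on genes for amino acid synthesis, uptake and tRNA charging, along with factors that end the response. ATF4 is set largely at the level of its translation, so the transcript of Atf4 is not a measure of its activity.

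Each value below is a deposited value on a log scale, taken to be of base 2, already scaled between libraries by the authors. Every fold printed rests on that base. Genes were tested with limma where their mean was at least 3.32 on this scale (10 on the linear scale), and a gene was called where its p, adjusted by the Benjamini-Hochberg method over all genes tested, was under 0.05. In all, 40 members passed this filter in both systems. The other 6 (Atf3, Atf5, Cebpb, Chac1, Slc7a11 and Slc6a9) were too low to be tested.

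Trim71 itself had values of 7.43 to 7.53 in Trim71-KO libraries and 8.93 to 9.01 in Trim71-cond libraries. It stood at 10.00 to 10.18 in R595H/R595H libraries, 9.51 to 9.63 in R595H/+ libraries and 9.48 to 9.54 in WT libraries. No source used here says which exons were deleted. Of 9 stem cell markers, 8 passed the filter, and Utf1 lay at 2.87 to 3.31. Of 8 fibroblast or feeder markers, 6 were not in the table, and Pdgfrb and Thy1 did not exceed 2.71 in any library. The 4 primitive endoderm markers in the table stayed between -0.02 and 2.72. Of 5 neural progenitor markers, 2 were in the table, Sox1 at 1.38 to 1.95 and Nes at 5.84 to 6.55. Nes was tested and not called in Trim71-KO against Trim71-cond or in R595H/R595H against WT. In Trim71-KO cells 4 of the 8 tested stem cell markers were higher than in Trim71-cond, Nanog by 0.39, and 1 was lower. Of the 3 tested trophectoderm markers, Krt18 fell by 0.63 on the log2 scale in Trim71-KO, where 1 of the 3 lay above 0 (0.07). Krt8 rose by 0.42 in R595H/R595H against WT, where 1 of the 3 lay below 0 (-0.11). Only these 2 changes were called, 1 in each comparison. The summed linear level of the 4 trophectoderm markers in the table was 55.3 to 77.0 in Trim71-KO and 66.2 to 97.5 in Trim71-cond libraries, and 69.0 to 73.9 in R595H/R595H, 49.1 to 60.4 in R595H/+ and 58.4 to 63.8 in WT libraries. Their part in the members' differences was not tested. Several other features of the libraries moved with genotype or differed between clones. Lars2 ranged from 12.44 (C20) to 17.96 (C24) among R595H/R595H libraries. The mean of 4 Y-linked genes was 3.72 to 4.36 in R595H/R595H, 4.02 to 5.61 in R595H/+ and 3.89 to 6.00 in WT libraries. The same mean was 5.65 to 5.80 in Trim71-KO and 5.88 to 6.20 in Trim71-cond libraries. Both libraries of C14 were the most alike of all 190 pairs, with a median size of difference of 0.02 per gene, and they count once in the clone mean. The next closest pairs joined different clones, C24 with the C14 libraries of 5/2 (0.056) and 20/1 (0.057). Libraries of the same clone differed by 0.099 in C15 and 0.098 in C16. C14 and C24 enter every test as separate clones, and whether they are independent was not tested.

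In Trim71-KO cells a few members moved in opposite directions. The asparagine synthetase gene Asns, the proline synthesis gene Aldh18a1 and the glutamine transporter gene Slc1a5 rose, while Shmt2, a mitochondrial enzyme of one-carbon metabolism, and the tRNA synthetase genes Gars and Sars fell. The changes were between 0.21 and 0.32 in size, at most 1.25-fold. These 6 calls, 3 higher and 3 lower, stand against 18.6% of all 9580 genes called in this comparison (9.24% higher and 9.37% lower), so the share of members called was not above that of all genes. The median difference of the 40 tested members was 0.03, beside -0.003 over all genes, with 20 above 0 and 20 below. An unadjusted p under 0.05 was reached by 18 members (32.7% of all genes). Groups did not overlap for 7 members, 4 higher and 3 lower, beside 20.8% of all genes, 10.6% higher and 10.2% lower. When the libraries of one code were left out, 4 members were called without 1A, 2 without 2B, 3 without 3A and 3 without 3B. Asns and Sars were called without 1A, together with Aldh18a1 and Gars.

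In R595H/R595H cells the changes that passed the test were in amino acid synthesis, with Asns and the cysteine synthesis gene Cth higher than in WT. These 2 members, with none lower, stand beside 3.42% of all 9587 genes called, 2.19% higher and 1.23% lower. Of the 328 genes called, 64.0% were higher, a share that was 45.9% when libraries were scaled to equal totals and 47.6% when they were centred on their medians. The other 38 tested members did not pass, and 12 members had an unadjusted p under 0.05 (21% of all genes). Their order was nevertheless uneven: 32 of the 40 members lay above 0, where 49.3% of all genes did, and their median difference was 0.11, beside -0.002 over all genes. Clones did not overlap for 16 members, 15 higher and 1 lower, beside 29.7% of all genes (14.3% higher and 15.4% lower). The lone lower one was Slc38a2, whose difference did not pass the test. The 2 calls were lost together without WT clone C16, without WT clone C5 and with the Y-linked mean in the model, and with equal totals Cth alone was called. Without R595H/+ clone C21, which enters the shared estimate of spread, 4 members were called, the further ones being Slc1a5 and Slc3a2.

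**Figure D1:**
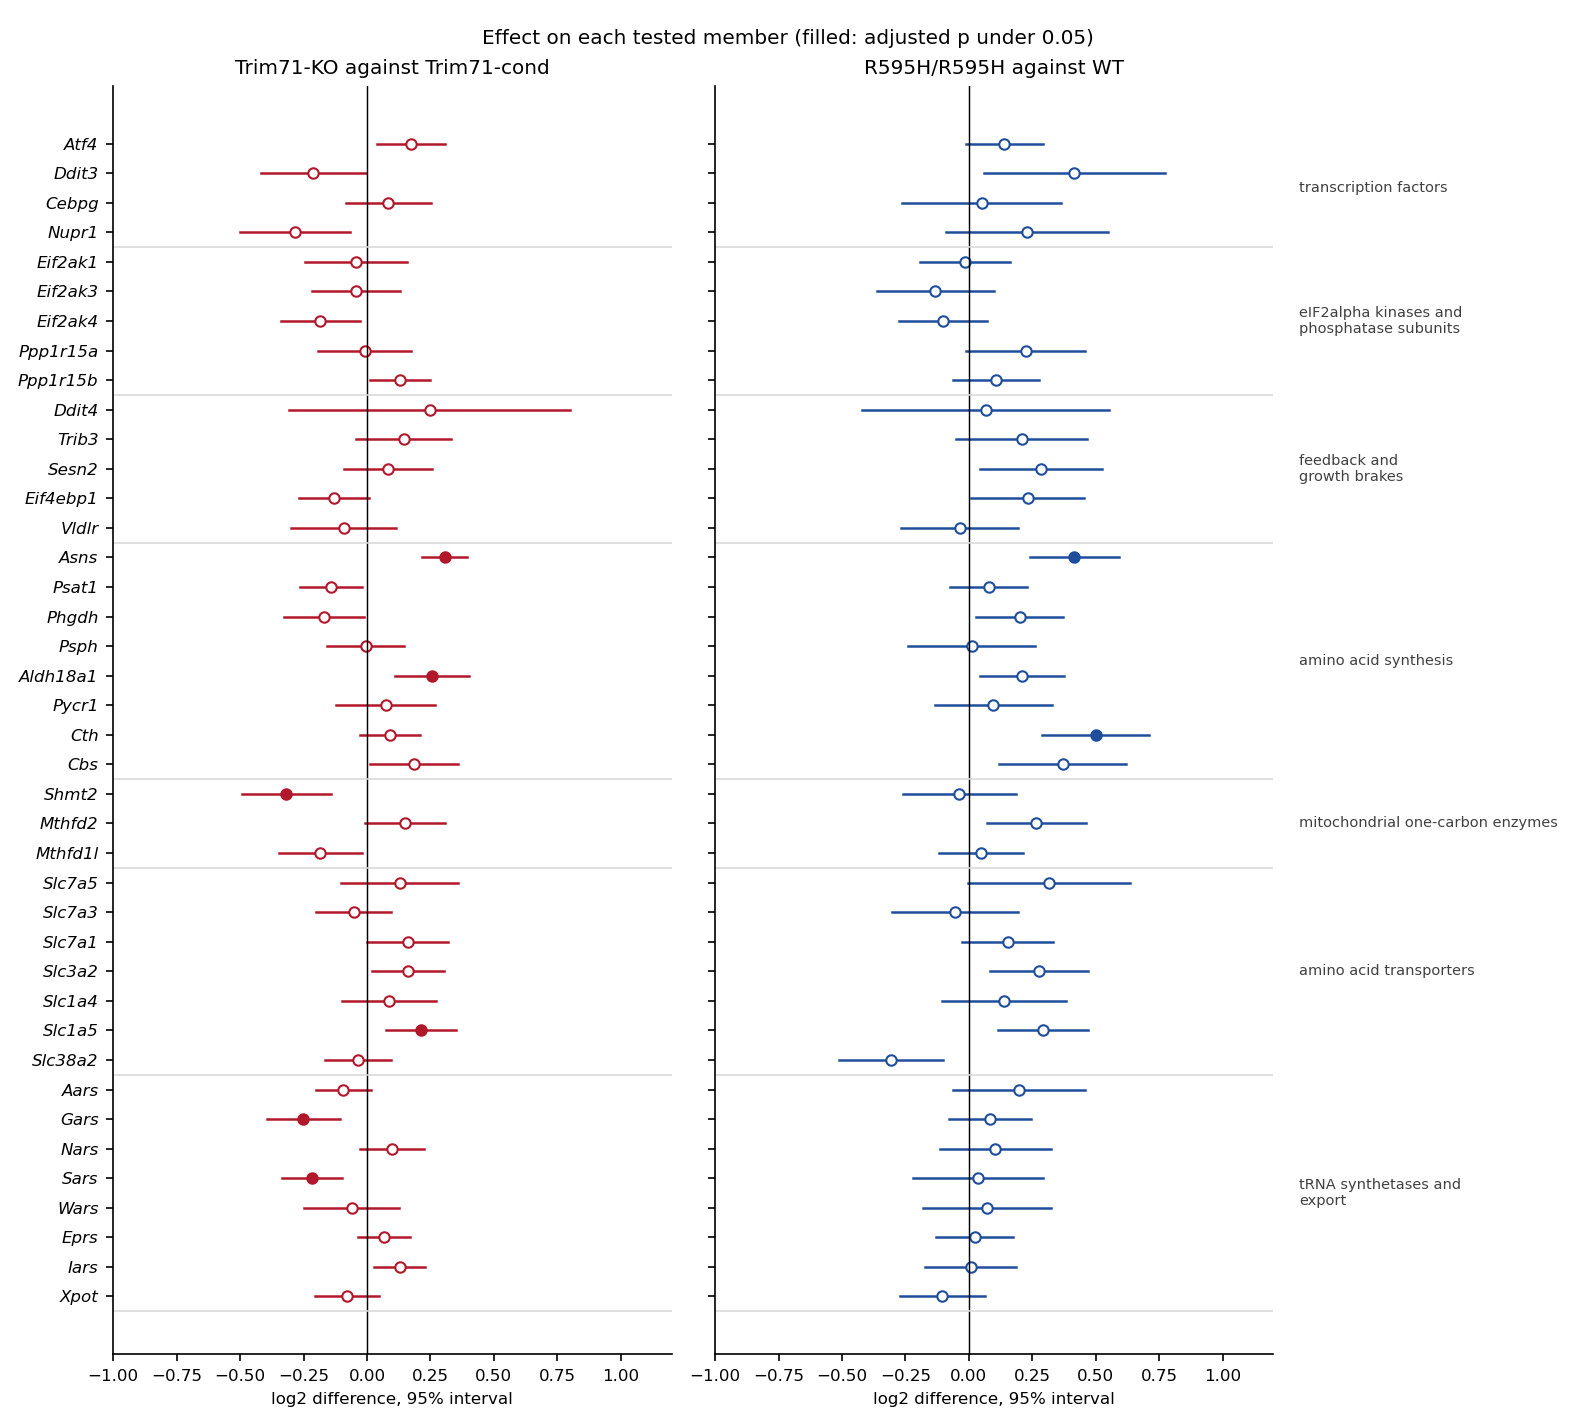
Difference of each of the 40 tested members with its 95% interval, on the log2 scale, in Trim71-KO against Trim71-cond (left) and R595H/R595H against WT (right), with members grouped by role. Filled points passed the test: 6 in Trim71-KO, split between higher and lower, and 2 in R595H/R595H, Asns and Cth, both higher.

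The member with a call in both systems was Asns, which makes asparagine from aspartate and glutamine and is among the genes most often used to read out the amino acid response. In Trim71-KO libraries its values were 11.21, 11.10, 11.16 and 11.15 (codes 1A, 2B, 3A and 3B), against 10.81, 10.89, 10.81 and 10.88 in Trim71-cond libraries. Every Trim71-KO library lay above every Trim71-cond library. The difference was 0.31 ± 0.04 (SE, n = 4 against 4), or 1.24-fold, with a limma adjusted p of 5.38e-05. It stayed past the threshold in all 21 alternatives computed for it, with differences of 0.28 to 0.34 and adjusted p-values of at most 0.00533.

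In the clones, Asns was at 11.22 and 11.24 (C14, 20/1 and 5/2), 11.49 (C20) and 11.14 (C24) in R595H/R595H libraries. It was at 11.05 and 10.99 (C15), 10.99 (C21) and 10.99 (C23) in R595H/+ libraries, and at 10.84 and 10.81 (C16), 10.84 (C5) and 10.94 (C7) in WT libraries. The 3 genotypes formed an order without overlap, R595H/R595H highest and WT lowest. The R595H/R595H clones averaged 11.29 ± 0.18, the R595H/+ clones 11.00 ± 0.02 and the WT clones 10.87 ± 0.06 (SD, n = 3 each). R595H/R595H clones exceeded WT clones by 0.42 ± 0.08 (SE), or 1.33-fold, with a limma adjusted p of 0.0164. R595H/+ exceeded WT by 0.13 ± 0.08 (limma adjusted p = 0.767), and R595H/R595H exceeded R595H/+ by 0.28 ± 0.08 (limma adjusted p = 0.0965), so neither of the neighbouring steps passed the test. C20, the highest clone, also had the lowest Lars2 value, and without C20 the difference from WT was 0.31 (limma adjusted p = 0.0257). Among the 5/2 libraries alone it was 0.42 (limma adjusted p = 0.0219). The call was lost without WT clone C16 (limma adjusted p = 0.0753), without WT clone C5 (0.0708), with the Y-linked mean as a covariate (0.0643) and with equal library totals (0.0668).

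The promoter sequence of Asns is shown because it holds the composite site of ATF4 and C/EBP proteins, written here as TGATGNAAN and searched on both strands. The stretch runs over the 250 bases upstream of the RefSeq start of Asns at chr6:7693210-7693459 (GRCm38.p6, minus strand), printed 5′ to 3′ along the gene, with the match in capitals at positions -23 to -15 from the start.
Asns: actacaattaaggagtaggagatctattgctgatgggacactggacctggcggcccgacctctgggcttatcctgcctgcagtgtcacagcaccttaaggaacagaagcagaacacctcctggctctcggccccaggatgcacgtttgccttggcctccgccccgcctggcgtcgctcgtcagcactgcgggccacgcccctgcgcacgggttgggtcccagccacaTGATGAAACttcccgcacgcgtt

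The same letters were looked for in RefSeq windows from 250 bases before to 50 bases after the start of each gene. Of the 46 members, 38 had such an entry. The match was found in 12 of these 38 (31.6%), against 3.95% of all 32851 promoter windows and 4.50% of the 27025 genes that have one. The 12 were Atf3, Nupr1, Trib3, Chac1, Vldlr, Asns, Pycr1, Slc7a11, Slc1a4, Aars, Gars and Iars, with 2 matches each in Slc7a11 and Aars. Many members were put on such lists because ATF4 acts on them, so this share describes the list. Ppp1r15b, Eif4ebp1, Cth, Slc7a5, Slc7a3, Slc1a5, Nars and Wars had no entry. Windows of 29 bases are shown for Gars, the other called member with a match, and for Trib3, Chac1 and Slc7a11, which are widely used as readouts of ATF4. They are printed along the gene, with the match in capitals, and a match read on the opposite strand appears as its reverse complement. Gars lies at chr6:55037960-55037988 (plus strand), Trib3 at chr2:152344029-152344057 (minus strand) and Chac1 at chr2:119351038-119351066 (plus strand). The windows of Slc7a11 lie at chr3:50443661-50443689 and chr3:50443643-50443671 (minus strand), all in GRCm38.p6.
Gars: tggctgcgctATTTCATCAtgcaccgggc
Trib3: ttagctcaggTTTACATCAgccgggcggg
Chac1: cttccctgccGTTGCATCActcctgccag
Slc7a11: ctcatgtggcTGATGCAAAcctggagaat
Slc7a11: acctggagaaTTTGCATCAtcatgcagcc

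Asns read the match on the strand of the gene and Gars on the opposite strand, and these 2 members moved in opposite directions in Trim71-KO. Tested members with an opposite-strand match lay on both sides of 0 there, from -0.28 (Nupr1) to 0.15 (Trib3). A link between strand and direction was not tested. Among tested members with a promoter entry, the 9 with a match had a median difference of 0.07 in Trim71-KO against Trim71-cond (range -0.28 to 0.31), and the 23 without had -0.01 (range -0.32 to 0.25). In R595H/R595H against WT the medians were 0.14 with a match (range -0.04 to 0.42) and 0.07 without (range -0.31 to 0.42). The ranges of both classes overlapped over most of their width in both comparisons.

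**Figure D2:**
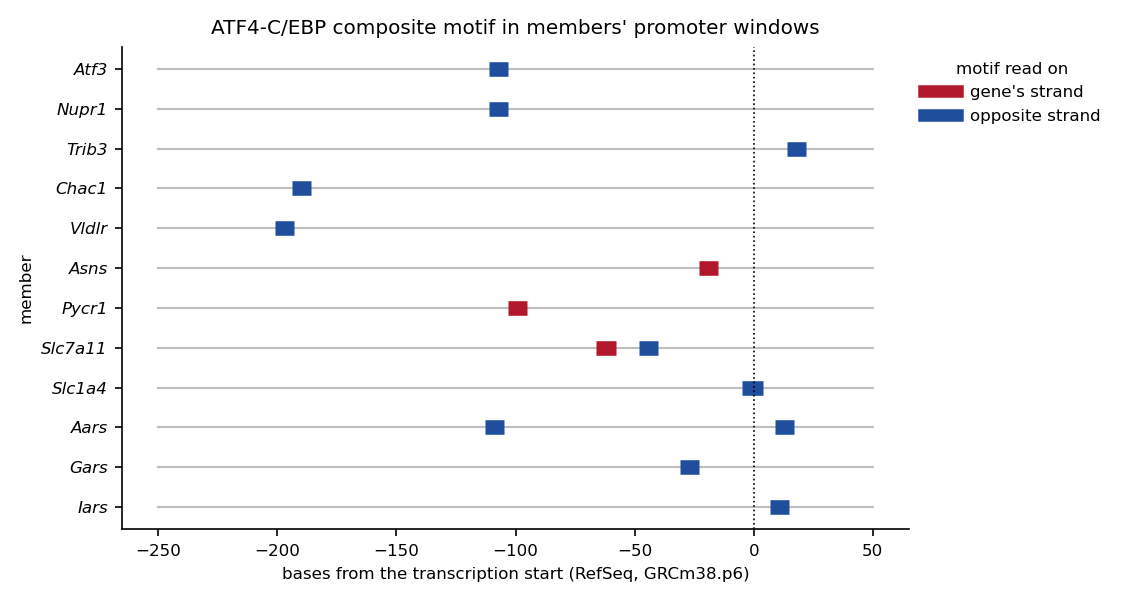
Position of each match to the composite site in the promoter windows of the 12 members that hold one, in bases from the RefSeq start (GRCm38.p6), coloured by strand. The match of Asns lies at -23 to -15 on the strand of the gene, and that of Gars at -31 to -23 on the opposite strand.

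Among the transcription factors, no member passed the test in either system. Atf4 had values of 7.93, 8.10, 7.98 and 7.84 in Trim71-KO libraries (1A, 2B, 3A and 3B), against 7.86, 7.73, 7.76 and 7.80 in Trim71-cond libraries. Apart from KO library 3B, which lay just below cond library 1A, the Trim71-KO values were the higher ones. The difference was 0.17 ± 0.06 (SE, n = 4 against 4) with a limma adjusted p of 0.0631, and it passed only without KO library 3B (0.0361). In the clones Atf4 was at 8.23 and 8.20 (C14), 8.23 (C20) and 8.21 (C24) in R595H/R595H libraries. It was at 8.19 and 8.10 (C15), 8.11 (C21) and 8.12 (C23) in R595H/+ libraries, and at 8.10 and 8.29 (C16), 8.06 (C5) and 7.98 (C7) in WT libraries. The R595H/R595H values lay within a narrow band, inside the range set by the single libraries of WT clone C16. By clone mean, the unit of comparison, R595H/R595H (8.21 to 8.23) lay above R595H/+ (8.11 to 8.15) and WT (7.98 to 8.20) without overlap. The difference between R595H/R595H and WT was 0.14 ± 0.07 (SE, n = 3 against 3; limma adjusted p = 0.276).

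Ddit3 encodes CHOP, which ATF4 induces and which promotes cell death under lasting stress. It was at 3.92, 4.17, 3.84 and 3.78 in Trim71-KO libraries (1A, 2B, 3A and 3B), against 4.20, 4.11, 4.34 and 3.91 in Trim71-cond libraries, with overlap. The difference was -0.21 ± 0.10 (SE; limma adjusted p = 0.145). In R595H/R595H libraries it was at 4.33 and 4.28 (C14), 3.89 (C20) and 4.56 (C24). In R595H/+ libraries it was at 4.33 and 4.18 (C15), 3.88 (C21) and 4.48 (C23), and in WT libraries at 3.81 and 3.92 (C16), 4.03 (C5) and 3.62 (C7). C20, the R595H/R595H clone with the lowest Lars2 value, lay within the WT range, and C24, with the highest Lars2 value, was the highest of all. The differences from WT were 0.42 ± 0.17 in R595H/R595H (limma adjusted p = 0.172) and 0.37 ± 0.17 in R595H/+ (limma adjusted p = 0.641). In none of the 20 alternatives computed for Ddit3, among them Lars2 as a covariate, was it called against WT in either genotype. What part Lars2 itself has in these values was not tested.

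Nupr1, a small stress-induced chromatin protein, differed by -0.28 ± 0.10 in Trim71-KO against Trim71-cond (limma adjusted p = 0.0604) and by 0.23 ± 0.15 in R595H/R595H against WT (0.401). It passed the test in Trim71-KO when KO library 2B or cond library 3B was left out. Cebpg, a dimer partner of ATF4, differed by 0.08 ± 0.08 and 0.05 ± 0.15 in the same order of comparisons. Of the untested factors, Atf3 lay between 2.51 and 2.95, Atf5 between 2.17 and 2.54 and Cebpb between 2.04 and 2.39 over all 20 libraries. These 3 are themselves induced under amino acid or other stress, and they were low in every genotype.

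The upstream kinases and phosphatase subunits gave no call. Eif2ak4, which encodes GCN2, differed by -0.18 ± 0.07 in Trim71-KO against Trim71-cond (limma adjusted p = 0.0897), and all 4 Trim71-KO libraries (6.28 to 6.45) lay below all 4 Trim71-cond libraries (6.48 to 6.69). Its difference in R595H/R595H against WT was -0.10 ± 0.08 (limma adjusted p = 0.495). Eif2ak3, the gene of the endoplasmic reticulum kinase PERK, and Eif2ak1, that of the heme-regulated kinase HRI, differed by -0.04 ± 0.08 and -0.04 ± 0.10 in Trim71-KO. In R595H/R595H their differences were -0.13 ± 0.11 and -0.02 ± 0.08. Ppp1r15a and Ppp1r15b encode the stress-induced and the constitutive subunit that lead the phosphatase back to eIF2alpha. Ppp1r15b differed by 0.13 ± 0.06 in Trim71-KO (limma adjusted p = 0.114) with groups that did not overlap, and Ppp1r15a by -0.01 ± 0.09. In R595H/R595H they differed by 0.11 ± 0.08 and 0.22 ± 0.11, and neither passed.

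The feedback genes and growth brakes gave no call either. Trib3, a pseudokinase that restrains ATF4, was at 4.48, 4.69, 4.66 and 4.64 in Trim71-KO libraries (1A, 2B, 3A and 3B), against 4.66, 4.50, 4.34 and 4.38 in Trim71-cond libraries. It was at 4.79 and 4.72 (C14), 4.91 (C20) and 4.72 (C24) in R595H/R595H libraries. In R595H/+ libraries it was at 4.38 and 4.24 (C15), 4.13 (C21) and 4.70 (C23), and in WT libraries at 4.59 and 4.56 (C16), 4.64 (C5) and 4.54 (C7). The R595H/R595H values lay above all others of the clones, and R595H/+ spread over a wider range than WT. The differences were 0.15 ± 0.09 in Trim71-KO against Trim71-cond (limma adjusted p = 0.273), 0.21 ± 0.12 in R595H/R595H against WT (0.340) and 0.42 ± 0.12 in R595H/R595H against R595H/+ (0.0987).

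Sesn2, a leucine sensor that restrains mTORC1, differed by 0.28 ± 0.11 in R595H/R595H against WT (limma adjusted p = 0.163), and by 0.08 ± 0.08 in Trim71-KO against Trim71-cond. Eif4ebp1, a repressor of cap-dependent translation, differed by 0.23 ± 0.10 in R595H/R595H against WT (0.216) and by -0.13 ± 0.07 in Trim71-KO (0.186). For both genes the R595H/R595H clones lay above the WT clones without overlap. Ddit4, an inhibitor of mTORC1, varied widely within every group, from 6.48 (cond library 3B) to 7.54 (KO library 3A) in the conditional system. Its differences were 0.25 ± 0.23 in Trim71-KO and 0.07 ± 0.22 in R595H/R595H. Vldlr, a lipoprotein receptor, differed by -0.09 ± 0.10 and -0.04 ± 0.11. Chac1, which degrades glutathione, was too low for the test. It had values of 2.22, 2.48, 2.23 and 2.23 in Trim71-KO libraries (1A, 2B, 3A and 3B) and of 2.36, 2.36, 2.20 and 2.22 in Trim71-cond libraries. In the clones it was at 2.48 and 2.42 (C14), 2.22 (C20) and 2.57 (C24) in R595H/R595H, at 2.32 and 2.26 (C15), 2.15 (C21) and 2.35 (C23) in R595H/+, and at 2.38 and 2.69 (C16), 2.10 (C5) and 2.36 (C7) in WT libraries. The groups overlapped throughout.

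**Figure D3:**
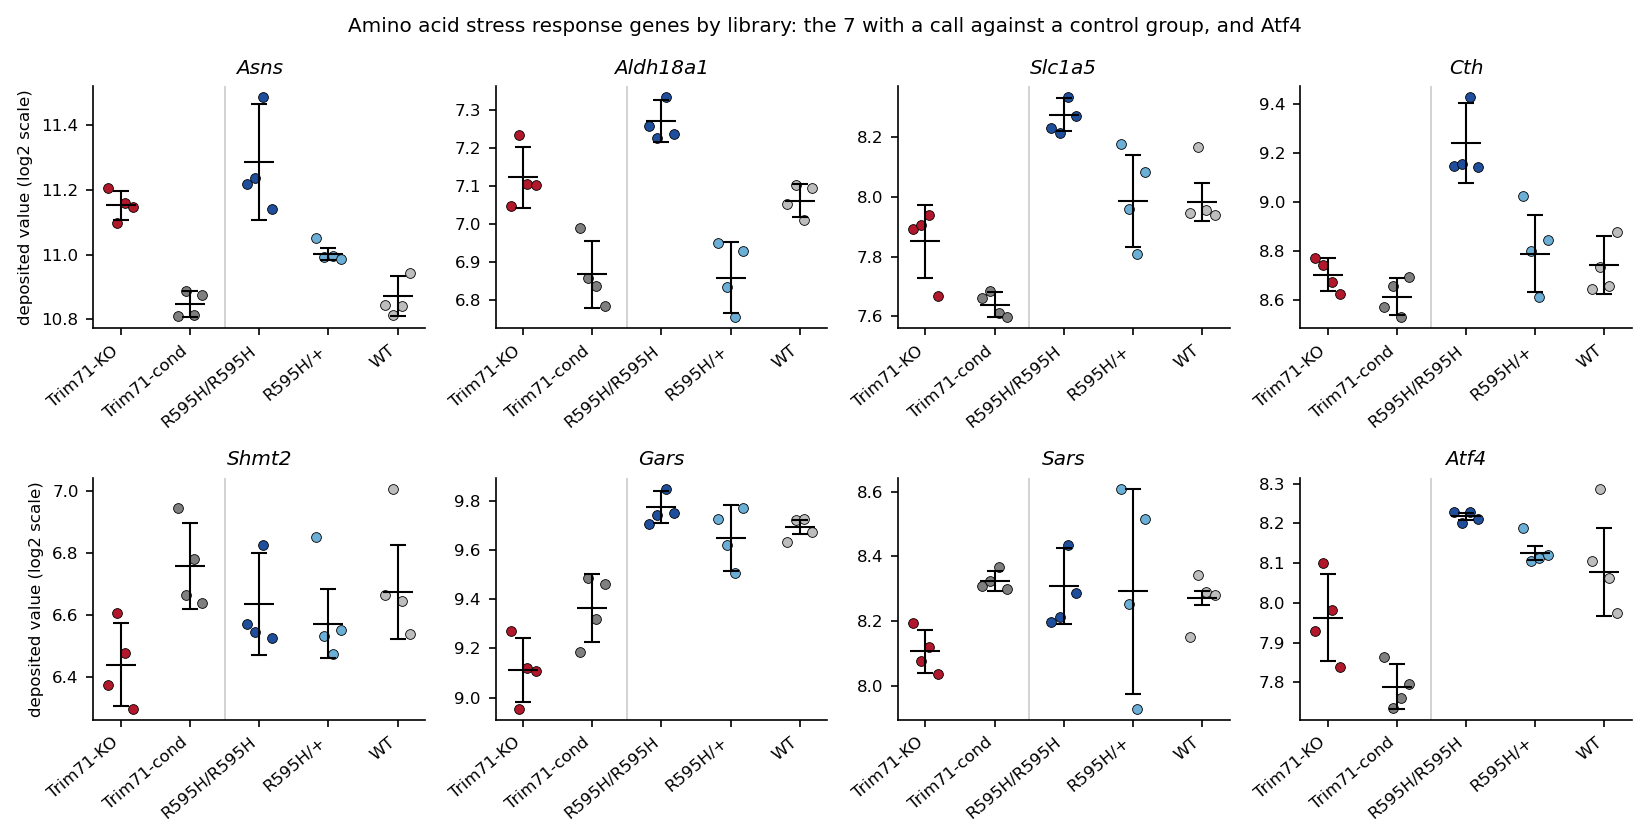
Deposited log2 value of the 7 members called against Trim71-cond or WT, and of Atf4, in each of the 20 libraries (points), with the mean and SD over the 4 libraries of a conditional group or the 3 clones of a genotype. For Asns and Aldh18a1 the 4 Trim71-KO libraries lie above all Trim71-cond libraries, and the R595H/R595H libraries lie above those of all other clones.

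Of the 8 amino acid synthesis genes tested, Asns and Aldh18a1 rose and none fell in Trim71-KO, where 18.6% of all genes were called, and the median difference was 0.08. In R595H/R595H, where 3.42% of all genes were called, Asns and Cth rose and none fell, with a median of 0.20 and all 8 above 0. With 8 genes, these counts are a description of the class. Aldh18a1 encodes the enzyme that starts proline synthesis from glutamate. It was at 7.05, 7.23, 7.11 and 7.10 in Trim71-KO libraries (1A, 2B, 3A and 3B), against 6.99, 6.86, 6.84 and 6.79 in Trim71-cond libraries. The groups did not overlap, and the difference within code 1A (0.06) was the smallest of the 4 codes, the others being 0.27 to 0.38. The overall difference was 0.25 ± 0.07 (SE, n = 4 against 4), or 1.19-fold, with a limma adjusted p of 0.0154. The call was lost without KO library 2B (limma adjusted p = 0.0524) and without both libraries of code 2B (0.0904), 3A (0.0590) or 3B (0.0712).

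In the clones Aldh18a1 was at 7.26 and 7.23 (C14), 7.33 (C20) and 7.24 (C24) in R595H/R595H libraries. In R595H/+ libraries it was at 6.95 and 6.83 (C15), 6.75 (C21) and 6.93 (C23), and in WT libraries at 7.05 and 7.10 (C16), 7.01 (C5) and 7.10 (C7). The 3 genotypes did not overlap, with R595H/R595H highest and R595H/+ lowest. R595H/R595H exceeded R595H/+ by 0.41 ± 0.08 (SE, n = 3 against 3), or 1.33-fold, with a limma adjusted p of 0.0299. Against WT the difference was 0.21 ± 0.08 in R595H/R595H (limma adjusted p = 0.139) and -0.20 ± 0.08 in R595H/+ (0.580).

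Cth encodes cystathionine gamma-lyase, which releases cysteine in the last step of its synthesis from methionine. It was at 9.14 and 9.15 (C14), 9.43 (C20) and 9.14 (C24) in R595H/R595H libraries. It was at 9.02 and 8.80 (C15), 8.61 (C21) and 8.84 (C23) in R595H/+ libraries, and at 8.64 and 8.73 (C16), 8.66 (C5) and 8.88 (C7) in WT libraries. Every R595H/R595H library lay above every other library of the clones, and R595H/+ and WT overlapped. R595H/R595H exceeded WT by 0.50 ± 0.10 (SE, n = 3 against 3), or 1.41-fold, with a limma adjusted p of 0.0163. It exceeded R595H/+ by 0.45 ± 0.10 (limma adjusted p = 0.0486), while R595H/+ differed from WT by 0.05 ± 0.10 (0.948). Without C20 the difference from WT was 0.41 (limma adjusted p = 0.0365), and among the 5/2 libraries alone it was 0.49 (0.0210). The call against WT was lost without WT clone C16 (0.0752), without WT clone C5 (0.0744) and with the Y-linked mean as a covariate (0.0643).

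In the conditional system Cth was at 8.77, 8.74, 8.67 and 8.62 in Trim71-KO libraries (1A, 2B, 3A and 3B), against 8.57, 8.66, 8.53 and 8.69 in Trim71-cond libraries. The groups overlapped, and the difference of 0.09 ± 0.06 (SE, n = 4 against 4) did not pass (limma adjusted p = 0.280). Subtracting the R595H/R595H effect of Cth from its Trim71-KO effect gave -0.41 ± 0.11, with a limma adjusted p of 0.0580. Cbs, which acts just before Cth, differed by 0.37 ± 0.12 in R595H/R595H against WT (limma adjusted p = 0.0938) and by 0.19 ± 0.08 in Trim71-KO against Trim71-cond (0.123). Its R595H/R595H clones (5.00 to 5.21) lay above its WT clones (4.48 to 4.85).

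The genes of serine synthesis gave no call. Phgdh, which catalyses its first step, differed by -0.17 ± 0.08 in Trim71-KO against Trim71-cond (limma adjusted p = 0.124) and by 0.20 ± 0.08 in R595H/R595H against WT (0.173). The test of the difference between these effects gave -0.37 ± 0.11 with a limma adjusted p of 0.0780. Psat1, the aminotransferase of the pathway, differed by -0.14 ± 0.06 and 0.08 ± 0.07, and Psph, its phosphatase, by -0.01 ± 0.07 and 0.01 ± 0.12, in the same order. Pycr1, which completes proline synthesis, differed by 0.07 ± 0.09 and 0.10 ± 0.11.

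The mitochondrial one-carbon enzymes turn serine into glycine and formate. Shmt2, which splits serine, was at 6.38, 6.61, 6.48 and 6.30 in Trim71-KO libraries (1A, 2B, 3A and 3B), against 6.95, 6.66, 6.78 and 6.64 in Trim71-cond libraries. The groups did not overlap, and the difference was largest within code 1A (-0.57) and smallest within code 2B (-0.06). Shmt2 fell by 0.32 ± 0.08 on the log2 scale (SE, n = 4 against 4), to a level 1.25-fold lower, with a limma adjusted p of 0.0122. The call was lost without KO library 3B (0.0502), without code 3B (0.0501) and without code 1A (0.104). In the clones Shmt2 was at 6.57 and 6.55 (C14), 6.82 (C20) and 6.53 (C24) in R595H/R595H, at 6.85 and 6.53 (C15), 6.47 (C21) and 6.55 (C23) in R595H/+, and at 6.67 and 7.01 (C16), 6.65 (C5) and 6.54 (C7) in WT libraries. The genotypes overlapped, and R595H/R595H differed from WT by -0.04 ± 0.10 (limma adjusted p = 0.878). Mthfd1l, which releases formate, differed by -0.18 ± 0.08 in Trim71-KO (0.109) and by 0.05 ± 0.08 in R595H/R595H. Mthfd2, the step between them, differed by 0.15 ± 0.08 in Trim71-KO (0.176, called only without KO library 3A) and by 0.27 ± 0.09 in R595H/R595H (0.112), so the 3 differences did not share a sign in Trim71-KO.

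Of the 7 amino acid transporters tested, 1 rose in Trim71-KO, beside 9.24% of all genes higher, and none passed in R595H/R595H. Slc1a5 encodes ASCT2, which carries glutamine and other neutral amino acids. It was at 7.89, 7.91, 7.94 and 7.67 in Trim71-KO libraries (1A, 2B, 3A and 3B), against 7.66, 7.68, 7.61 and 7.60 in Trim71-cond libraries. KO library 3B lay among the Trim71-cond libraries and the others lay above them. The difference was 0.21 ± 0.07 (SE, n = 4 against 4), or 1.16-fold, with a limma adjusted p of 0.0290. The call was lost without KO library 1A (0.0666), 2B (0.0727) or 3A (0.0876), without cond library 3A (0.0649) or 3B (0.0717), and without code 1A (0.0891), 2B (0.0911) or 3A (0.152). It was also lost with eBayes without trend and robust (0.0554).

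In the clones Slc1a5 was at 8.23 and 8.21 (C14), 8.34 (C20) and 8.27 (C24) in R595H/R595H libraries, at 8.18 and 7.96 (C15), 7.81 (C21) and 8.09 (C23) in R595H/+ libraries, and at 7.95 and 8.17 (C16), 7.96 (C5) and 7.94 (C7) in WT libraries. The R595H/R595H libraries lay above all others of the clones. The difference from WT was 0.29 ± 0.08 (SE, n = 3 against 3; limma adjusted p = 0.0665), and it passed when only these genotypes were fitted or when R595H/+ clone C21 was left out. Slc3a2, the shared heavy chain of several transporters, differed by 0.28 ± 0.09 in R595H/R595H against WT (0.0989) and by 0.16 ± 0.07 in Trim71-KO against Trim71-cond (0.0974). It passed against WT in the same settings and also without R595H/+ clone C23. Slc7a5, the leucine carrier paired with Slc3a2, differed by 0.32 ± 0.15 (0.241) and 0.13 ± 0.11 (0.452), with C20 at 6.89 far above the other R595H/R595H libraries (6.18 to 6.42).

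Slc38a2 encodes SNAT2, a neutral amino acid transporter that cells raise under amino acid depletion, and it ran the other way in the clones. It was lower in R595H/R595H clones (8.40 to 8.55) than in WT clones (8.61 to 9.02) without overlap, by -0.31 ± 0.10 (SE; limma adjusted p = 0.0919), which did not pass. In Trim71-KO it differed by -0.03 ± 0.06. Slc7a1 and Slc7a3, which carry arginine and lysine, differed by 0.16 ± 0.08 and -0.05 ± 0.07 in Trim71-KO, and by 0.15 ± 0.08 and -0.06 ± 0.12 in R595H/R595H. Slc1a4, a carrier of serine and alanine, differed by 0.09 ± 0.09 in Trim71-KO and by 0.14 ± 0.11 in R595H/R595H. The cystine transporter gene Slc7a11 was close to 0 in every library. It was at 0.25, 0.29, 0.26 and 0.34 in Trim71-KO and 0.31, 0.31, 0.22 and 0.24 in Trim71-cond libraries (1A, 2B, 3A and 3B). In the clones it lay at 0.28, 0.27, 0.35 and 0.26 in R595H/R595H, 0.27, 0.23, 0.20 and 0.26 in R595H/+ and 0.31, 0.30, 0.28 and 0.37 in WT libraries. The conditional groups overlapped, while by clone mean R595H/+ lay below both other genotypes. These differences are small, lie near the bottom of the scale and were not tested. Slc6a9, a glycine transporter gene, lay between 1.63 and 1.97 and was not tested.

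The tRNA synthetases attach amino acids to their tRNAs. Of the 8 members of this class, which includes the tRNA export factor gene Xpot, 2 fell and none rose in Trim71-KO, beside 9.37% of all genes lower, and none passed in R595H/R595H. Sars, for serine, was at 8.19, 8.08, 8.12 and 8.04 in Trim71-KO libraries (1A, 2B, 3A and 3B), against 8.31, 8.32, 8.37 and 8.30 in Trim71-cond libraries, without overlap. It fell by 0.22 ± 0.06 on the log2 scale (SE, n = 4 against 4), to a level 1.16-fold lower, with a limma adjusted p of 0.0108. The call was lost without both libraries of code 2B (0.0510) or 3A (0.0536). Gars, for glycine, was at 9.27, 8.95, 9.12 and 9.11 in Trim71-KO libraries, against 9.19, 9.49, 9.32 and 9.46 in Trim71-cond libraries (same codes). It was lower in the Trim71-KO library of codes 2B, 3A and 3B and higher in that of code 1A. Gars fell by 0.25 ± 0.07 on the log2 scale, to a level 1.19-fold lower, with a limma adjusted p of 0.0153. The call was lost without KO library 2B (0.0594), cond library 2B (0.0683) or 3B (0.0641), without code 2B (0.172) or 3B (0.129), and with eBayes without trend and robust (0.0571).

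In the clones neither gene passed. Sars was at 8.20 and 8.21 (C14), 8.43 (C20) and 8.29 (C24) in R595H/R595H libraries, at 8.61 and 8.25 (C15), 7.93 (C21) and 8.52 (C23) in R595H/+ libraries, and at 8.15 and 8.34 (C16), 8.29 (C5) and 8.28 (C7) in WT libraries. The 2 libraries of C15 lay 0.36 apart, more than the other genotypes' clones spread, and R595H/R595H differed from WT by 0.04 ± 0.12. Gars was at 9.71 and 9.74 (C14), 9.85 (C20) and 9.75 (C24) in R595H/R595H libraries, at 9.73 and 9.62 (C15), 9.51 (C21) and 9.77 (C23) in R595H/+ libraries, and at 9.63 and 9.72 (C16), 9.73 (C5) and 9.67 (C7) in WT libraries. It differed by 0.08 ± 0.08 between R595H/R595H and WT, and its Trim71-KO effect minus its R595H/R595H effect was -0.33 ± 0.11 (limma adjusted p = 0.104). The differences of the other synthetase genes in Trim71-KO were -0.09 ± 0.05 for Aars (alanine), 0.10 ± 0.06 for Nars (asparagine), -0.06 ± 0.09 for Wars (tryptophan), 0.07 ± 0.05 for Eprs (glutamate and proline) and 0.13 ± 0.05 for Iars (isoleucine, limma adjusted p = 0.0702). Iars passed only under quantile normalization (0.0445). The difference of Xpot was -0.08 ± 0.06. In R595H/R595H these 6 genes lay between -0.11 (Xpot) and 0.20 (Aars).

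In R595H/+ clones no member was called against WT. Over all 9587 genes the number called was 0 with limma (0%), while 734 had an unadjusted p under 0.05 (7.66%), among them 4 members. The 4 were Ddit3 and Ppp1r15a, which lay above WT, and Aldh18a1 and Slc38a2, which lay below it. The median difference of the members was -0.01, with 17 above 0. Clones did not overlap for 1 higher member, Asns, and 2 lower ones, Aldh18a1 and Eif2ak1, beside 12.5% of all genes (6.27% higher and 6.19% lower). R595H/R595H against R595H/+ gave 2 calls, Aldh18a1 and Cth, both higher, against 0.772% of all genes (0.574% higher and 0.198% lower). Of the 74 genes called 74.3% were higher, a share of 57.9% with equal library totals. Members lay above 0 in 34 of 40 cases, with a median of 0.13, and 10 had an unadjusted p under 0.05 (18.7% of all genes). Clones did not overlap for 13 members, all higher, beside 25.4% of all genes (12.4% higher and 13% lower). Both calls were lost when single clones were left out. Aldh18a1 was lost when any of the R595H/R595H clones, the R595H/+ clones C15 or C21, or the WT clones C16 or C5 was left out, with limma adjusted p-values of 0.0507 to 0.135. Cth was lost without any of the R595H/+ or WT clones or the R595H/R595H clones C14 or C20, with differences of 0.36 to 0.51 and limma adjusted p-values of 0.0568 to 0.114. Over all 21 alternatives the limma adjusted p-values of Cth ran from 0.0321 to 0.179. These comparisons share clones with that of R595H/R595H against WT, so their values are not independent of it.

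**Figure D4:**
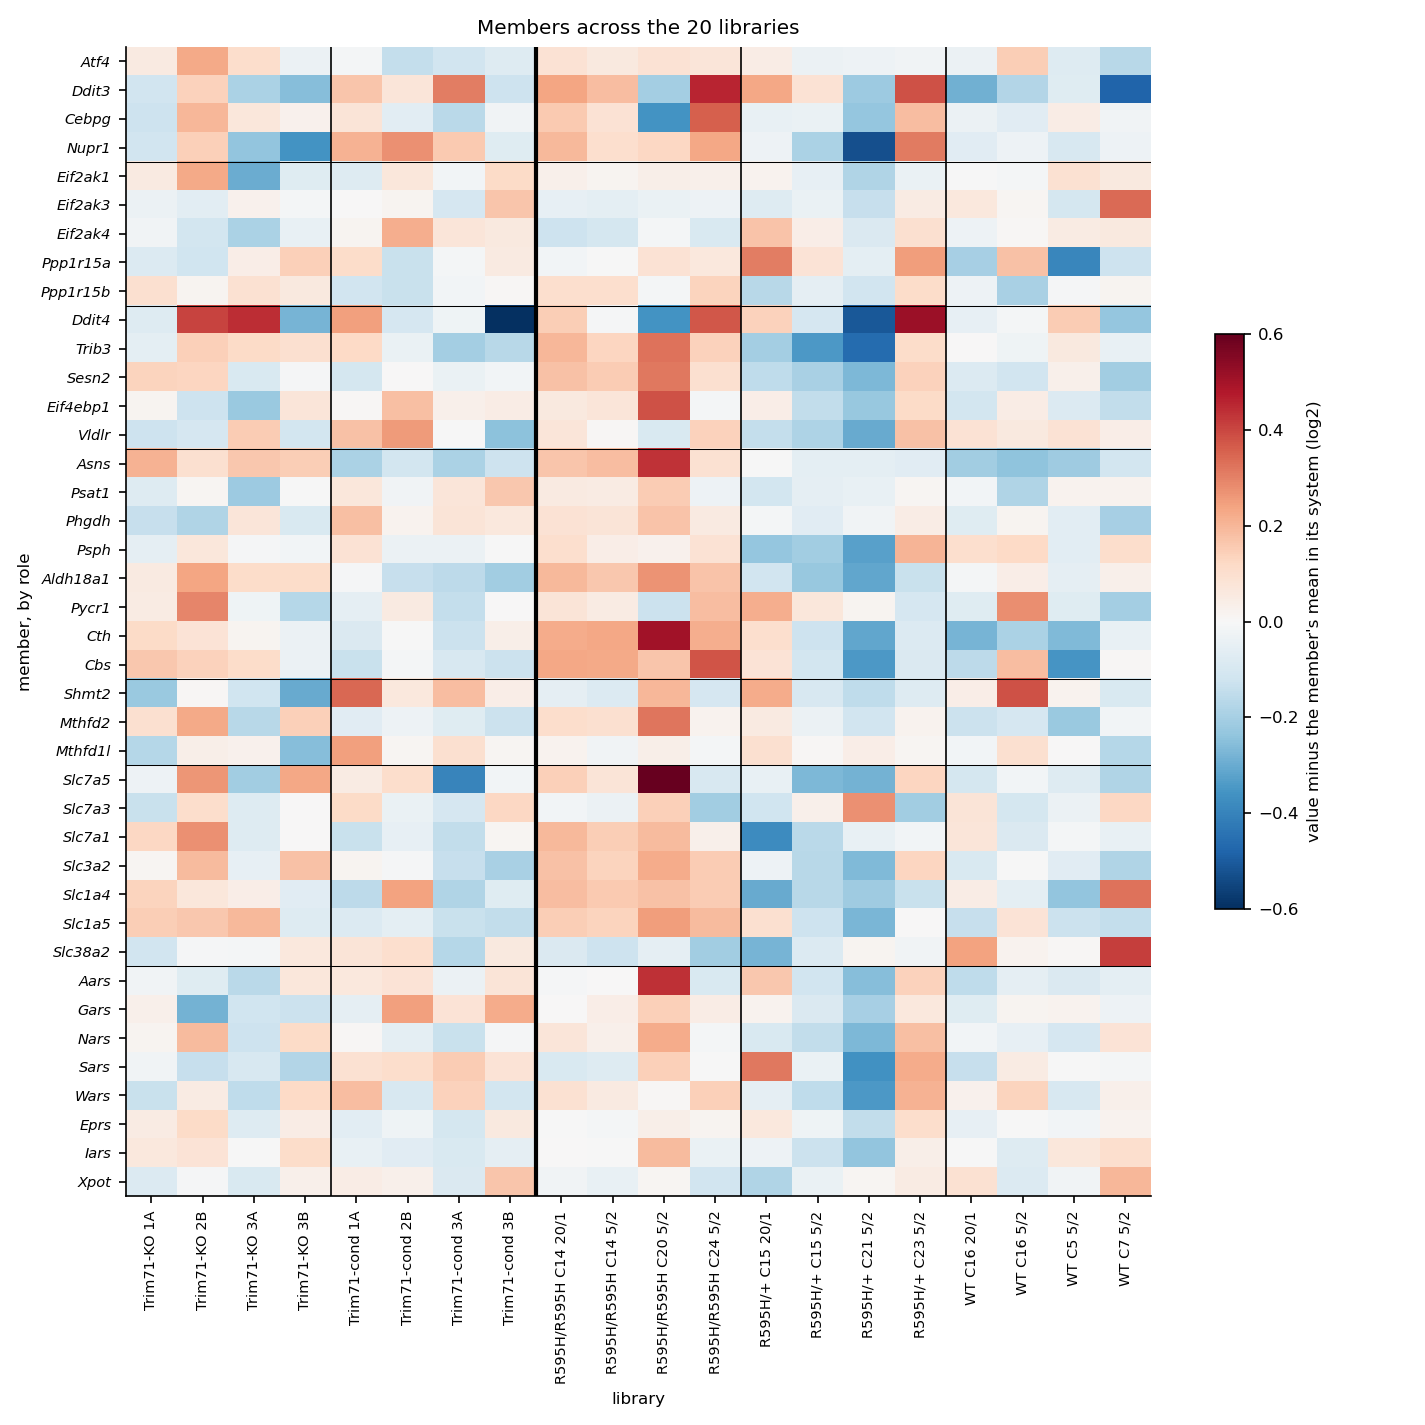
Value of each tested member in each library minus its mean in the same system, on a log2 scale cut at 0.6 in both directions. Rows are by role and columns by genotype. The mean was taken over libraries in the conditional system and over clone means in the clonal system. Among the columns of the clones, the rows of Asns, Cth and Aldh18a1 are highest in R595H/R595H, and C21 of R595H/+ is low over many rows.

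Over the 40 tested members, the mean deviation from the mean of the system was 0.06 to 0.13 in the R595H/R595H libraries, -0.19 to 0.08 in the R595H/+ libraries and -0.06 to -0.0003 in the WT libraries. Every R595H/R595H library lay above every WT library, while the R595H/+ libraries ran from the lowest of all, C21, to C23, which lay among the R595H/R595H libraries. In the conditional system the means were -0.03 to 0.08 in Trim71-KO and -0.05 to 0.03 in Trim71-cond libraries, with overlap. The median of all genes in the table was 5.18 to 5.20 in R595H/R595H and 5.15 to 5.18 in WT libraries. The members' median difference between R595H/R595H and WT, 0.11 in the main fit, was 0.07 with equal library totals and 0.08 with median centring. C21 and C20 had the lowest Lars2 values of the clones, 13.06 and 12.44, and stood at opposite ends of the member means. Between the 20/1 and 5/2 libraries of a clone, members differed by a median size of 0.03 in C14, 0.13 in C15 and 0.09 in C16. The median size of the R595H/R595H effect on members was 0.14, close to the date difference in C15, the largest of these. An effect compares means of clones and a date difference compares single libraries, so these sizes are not like for like. In bulk libraries fewer cells of a type and less RNA per cell cannot be told apart.

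**Figure D5:**
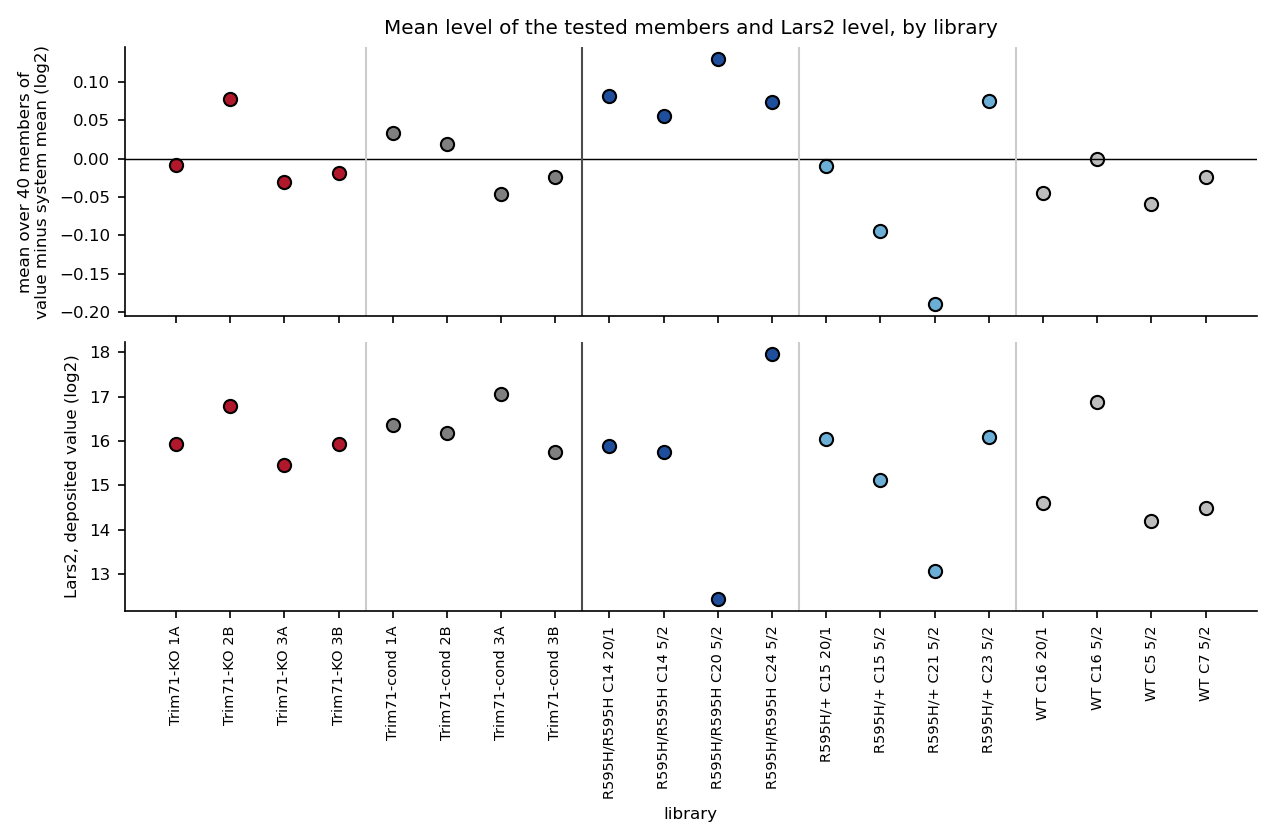
Mean over the 40 tested members of the value minus its mean in the same system (top) and deposited value of Lars2 (bottom), both on the log2 scale, for each of the 20 libraries. The R595H/R595H libraries lie at 0.06 to 0.13 in the top panel, above the WT libraries, while their Lars2 values span 12.44 to 17.96.

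The effects of the deletion and of the homozygous form come from comparisons with no library in common, and were set side by side for the 40 tested members. Both effects were above 0 for 20 members and below 0 for 8, and for 12 the Trim71-KO effect was below 0 and the R595H/R595H effect above it. No member showed the opposite pattern. Over all 9531 genes tested in both, the shares were 30.0%, 31.3%, 19.4% and, for the opposite pattern, 19.3%. The difference between the effects was tested in one fit of both systems. It called 136 of 9585 genes (1.42%, with 0.73% higher and 0.689% lower) and no member, while 10 members had an unadjusted p under 0.05, beside 17.4% of all genes. Of the 136 genes 51.5% had a positive difference, a share of 68.6% with equal library totals and 64.0% with median centring. The largest difference in size was that of Ddit3, at -0.63 ± 0.21 (limma adjusted p = 0.120), followed by Nupr1 at -0.51 ± 0.19 (0.148). Eif4ebp1 differed by -0.36 ± 0.12 (0.123). Leaving out a clone gave 1 call at most, that of Ddit3 without C20 and that of Cth without C24 or without C21. The starting cells and handling of the systems also differ, and this test cannot separate them from genotype.

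Further lists of neighbouring pathways also held called genes in Trim71-KO, and their counts are given beside the 18.6% of all genes called in that comparison, 9.24% higher and 9.37% lower. Of 12 tested genes on a list of other reported ATF4 targets, 1 rose and 2 fell, with a median of -0.14. Pck2, which makes phosphoenolpyruvate in mitochondria, rose by 0.28 ± 0.09, while the autophagy receptor gene Sqstm1 fell by 0.26 ± 0.06 and the endoplasmic reticulum oxidase gene Ero1l by 0.24 ± 0.07 on the log2 scale. Of 12 further components of eIF2 and its exchange factor, 3 fell and none rose, all of them exchange factor subunits. Eif2b3 fell by 0.26 ± 0.08, Eif2b2 by 0.24 ± 0.08 and Eif2b5 by 0.18 ± 0.06. Of 14 other cytosolic tRNA synthetase genes, 4 fell and none rose, namely Farsa by 0.41 ± 0.08, Vars by 0.27 ± 0.07, Yars by 0.21 ± 0.06 and Mars by 0.20 ± 0.05. Of 17 mitochondrial synthetase genes, Hars2 rose by 0.38 ± 0.08, while Ears2 fell by 0.32 ± 0.09 and Iars2 by 0.18 ± 0.06.

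Of 18 genes of the unfolded protein response of the endoplasmic reticulum, 4 fell and none rose in Trim71-KO, beside 9.37% of all genes lower and 18.6% called in either direction. They were Manf, a secreted stress factor, which fell by 0.37 ± 0.08, the disulphide isomerase gene Pdia6 by 0.30 ± 0.06, the transcription factor gene Xbp1 by 0.29 ± 0.08 and the chaperone gene Hspa5 by 0.23 ± 0.07. Of 10 mitochondrial quality control genes, the protease gene Oma1 rose by 0.30 ± 0.10 and the chaperone gene Hspd1 fell by 0.21 ± 0.05. Of 12 NRF2 targets, Nqo1, a quinone reductase gene, rose by 0.47 ± 0.09. Of 11 other genes of folate, serine and glycine metabolism, Dld, a dehydrogenase subunit of the glycine cleavage system, rose by 0.25 ± 0.06. Of 14 other amino acid transporters, Slc36a1 rose by 0.32 ± 0.08, while Slc43a1 fell by 0.32 ± 0.10 and Slc6a15 by 0.27 ± 0.09. Of 16 genes of the mTORC1 pathway, which senses amino acids, Rragc rose by 0.27 ± 0.07 and the inhibitor gene Deptor by 0.25 ± 0.08, while Mtor fell by 0.28 ± 0.06, Rragd by 0.27 ± 0.09 and Sesn1 by 0.23 ± 0.08.

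The same lists gave fewer calls in R595H/R595H against WT, where 3.42% of all genes were called. Gadd45a, a stress gene and the only call among 11 tested ATF4 targets, rose by 0.68 ± 0.11 (limma adjusted p = 0.00736). Of the mTORC1 genes, Rragc rose by 0.37 ± 0.08, while Rragd fell by 0.38 ± 0.08 and Rragb by 0.44 ± 0.11. These 3 encode GTPases that bring mTORC1 to the lysosome. Rragc was thus higher and Rragd lower in Trim71-KO and in R595H/R595H, each against its own controls. Slc48a1, a heme transporter gene on the NRF2 list, rose by 0.41 ± 0.09, and the amino acid transporter gene Slc38a4 fell by 0.45 ± 0.09. No gene passed among the 12 eIF2 components, the 14 cytosolic and 17 mitochondrial synthetases, the 18 unfolded protein response genes, the 10 quality control genes or the 11 folate, serine and glycine genes. All of these lists were drawn up with earlier results of these data known, and their counts are descriptions.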

How the data were processed

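Polyadenylated RNA of 20 libraries was prepared with TRIzol and a TruSeq RNA v2 kit and sequenced on a HiSeq1500 with paired ends, per the labels' protocols. Per the submitters' processing notes, CASAVA 1.8, STAR and DESeq2 were used. What genome build, annotation, strand setting and transformation they used is not given in the sources used here. In all, the authors deposited 1 table of values per gene on another scale than counts, running from -0.65 to 17.96, with 1.58% below 0. The deposited values are treated as log2 values scaled by the authors, with the base inferred from DESeq2, and shrinkage of low genes in such a scale would understate their changes. The depth per library is unknown, so no counting interval could be given.

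Genes whose mean log2 value reached 3.32 (10 on the linear scale) were tested with limma 3.58.1 in R 4.3.3 (eBayes with trend and robust). Among them were 40 of the 46 members. The conditional fit used 8 libraries, the clonal fit the means of 9 clones, and the difference between effects 1 fit of both. Adjusted p-values are Benjamini-Hochberg values over all genes tested, and the fits were tested on simulated data. Conditional libraries share codes and a day label. Deviations of libraries from their group means correlated at -0.89, -0.09, -0.12 and 0.13 for codes 1A, 2B, 3A and 3B, so the codes were not taken to pair them. At code 1A the deviations of the KO and cond libraries were thus strongly opposed, which sets this code apart. KO library 1A correlated at 0.43 with cond library 3A, and cond library 1A at 0.38 with KO library 2B. The reason was not tested. Clonal libraries were dated by their titles, since the day labels of some differ from them. The members and all lists were chosen with earlier results of these data known.

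Every member is named. Values in every library are given for members called against Trim71-cond or WT and for Atf4, Ddit3, Trib3, Chac1 and Slc7a11. From each other list up to 3 called genes with the smallest p are named. Yars, Hspa5, Rragd and Sesn1 in Trim71-KO, the markers and further values outside this rule were named after their values were seen. Alternatives changed the filter, scaling, moderation, covariates and samples. Promoter and motif windows come from RefSeq (GRCm38.p6).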

Additional observations from a re-analysis of the deposited data

Results flagged for a closer look

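For each member and group of 4 libraries, the gap between an extreme library and its nearest neighbour was set against the whole range of the group, and 4 of 92 sets went past the critical value of Dixon's test, where chance flags about 1 in 20. Chac1 in KO library 2B was one, with a ratio of 0.940, at 2.48 beside 2.22 to 2.23 in the other Trim71-KO libraries. Vldlr in KO library 3A had a ratio of 0.908, at 3.80 beside 3.52 to 3.54. Slc38a2 in cond library 3A had a ratio of 0.851, at 8.65 beside 8.88 to 8.92, and Aars in the same library had 0.845, at 9.80 beside 9.90 to 9.92. None of these 4 genes was called in Trim71-KO.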

How the results depend on the processing

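No called member changed its sign in any of the 21 alternatives computed for it. In Trim71-KO the number of members called was 6, 2 to 6 when libraries or codes were left out and 4 to 7 otherwise, with 7 under quantile normalization (Iars added) and 4 with eBayes without trend and robust. With the replicate block it was 6 (3 higher, 3 lower) and the call of no member changed, while 1392 of all genes were called in place of 1783. Against WT, R595H/R595H gave 2 members, 1 with equal library totals (Cth), 0 with the Y-linked mean as a covariate, 4 when only the compared genotypes were fitted, and 0 to 4 when clones were left out. Against R595H/+ it gave 2, but 1 with the filter on the mean log2 value raised to match 50 on the linear scale. It also gave 1 with median centring or with eBayes without trend and robust. The count was 0 with equal library totals, with the Y-linked mean or with only the compared genotypes. It was 3 with Lars2 as a covariate, Asns being the further one. Leaving out clones gave 0 to 2 there. R595H/+ against WT gave 0 members and 0 genes throughout. The difference between effects gave 0 members, 1 with quantile normalization (Cth, lower) and 0 to 1 when samples were left out. Where these counts moved the cause was not tested. Over all genes, R595H/R595H against WT gave 328 calls, 67 to 541 with clones left out, 157 with equal totals, 177 with the stricter filter, 191 among the 5/2 libraries, 134 with the Y-linked mean and 565 with Lars2 as a covariate. Against R595H/+ the count was 74, 7 to 80 with clones left out and 1 to 244 otherwise, and the difference between effects gave 136, 40 to 225 with samples left out and 83 among the 5/2 libraries. In Trim71-KO, 988 to 1634 genes were called when libraries or codes were left out, code 1A included. Among these counts were 988 without code 2B, 1132 without 3A and 1126 without 3B. With unknown depth, the precision of low members such as Chac1 and Slc7a11 cannot be stated.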
